A study of Drosophila melanogaster with 13 samples.

Results

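The Dsim_Zeus-only autosomal peaks are ChIP-Seq peaks of D. simulans Zeus on chromosomes 2, 3 and 4. No listed peak of D. melanogaster Zeus or D. yakuba Caf40 overlaps them. A missing peak in those lists does not show that the protein was absent. ChIP-Seq sequences the DNA that is pulled down with an antibody against a protein, and a peak is an interval in which such reads pile up. Of the 473 Dsim_Zeus peaks on the autosomal arms, 445 shared no bp with a peak of either other list, and these are described here. The 3 lists held 3433 distinct peaks in all, of which 1091 were Dsim_Zeus peaks. The 445 peaks were chosen by their intervals alone, that is by the absence of a Dmel_Zeus or Dyak_Caf40 peak at the same place. Their not overlapping the other lists is therefore a description and no result.

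All proteins were expressed in D. melanogaster (strain w1118) from a piggyBac transgene that was driven by the Actin5C promoter and carried a FLAG tag. Dsim_Zeus is Zeus of D. simulans, Dmel_Zeus is Zeus of D. melanogaster, and Dyak_Caf40 is Caf40 of D. yakuba, which lacks Zeus. Anti-FLAG libraries were made from chromatin of whole adults, with 150 flies per library. Dsim_Zeus had 4 of them, Dmel_Zeus 2 and Dyak_Caf40 4, and every protein had 1 input library without antibody. The libraries of a protein were technical replicates of 1 transgenic genotype. The Actin5C promoter is active in most tissues, so the transgenes were not limited to the testis, where Zeus is mainly expressed. The host kept its own Zeus and Caf40 genes, which carry no tag. No untagged flies were among the samples used here.

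Caf40 is a conserved subunit of CCR4-NOT, the complex that shortens the poly(A) tails of mRNAs and also acts on transcription. Zeus arose from it by retroposition, in which an mRNA is copied back into the genome, and its sequence changed quickly after it arose. In Drosophila the arms 2L and 2R, and 3L and 3R, each meet at a centromere. Near it the euchromatin of an arm gives way to pericentromeric heterochromatin, which is poor in genes and rich in transposons and other repeats. Chromosome 4 is very short and carries heterochromatic marks along most of its length, although it holds active genes.

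Each list was deposited as 1 table for a protein, with no value for a library and no read depth. Since replicate error could not be measured, no p-value is given. Shares of peaks are given with 95% Wilson intervals and differences between shares with 95% Newcombe intervals. These intervals cover counting error only and count every peak as independent, which close neighbours may not be. The Dsim_Zeus libraries carry a separate run of title numbers, so that protein and library series cannot be told apart.

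The Dsim_Zeus-only peaks were spread unevenly over the arms. Arm 2R held 143 of the 445 peaks, or 32.1% (95% Wilson interval 28.0 to 36.6), and 3L held 123, or 27.6% (23.7 to 32.0). Arm 2L held 92 peaks, or 20.7% (17.2 to 24.7), and 3R held 83, or 18.7% (15.3 to 22.5). Chromosome 4 held 4 peaks, or 0.899% (0.350 to 2.29). The densities were 6.82 peaks per Mb on 2R, 5.02 on 3L, 4.00 on 2L, 2.98 on 3R and 2.97 on chromosome 4. The density on 2R was 2.29 times that on 3R, the longest arm.

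The same arms were then compared with the 1561 autosomal Dyak_Caf40 peaks that had no Dsim_Zeus peak. On 2R the share was 32.1% of the Dsim_Zeus-only peaks and 23.4% of the Dyak_Caf40 peaks, a difference of 8.75 percentage points (95% Newcombe interval 4.05 to 13.7). On 3R it was 18.7% of the Dsim_Zeus-only and 27.7% of the Dyak_Caf40 peaks, a difference of -9.09 points (-13.1 to -4.64). On chromosome 4 it was 0.899% against 3.84%, a difference of -2.94 points (-4.15 to -1.32). The choice itself took out 4 of the 8 Dsim_Zeus peaks there. Over all Dsim_Zeus autosomal peaks the difference was -2.15 points (-3.51 to -0.33). Chromosome 4 made up 1.38% of the summed arm length, inside the interval of the Dsim_Zeus-only share (0.350 to 2.29). The interval of the difference included 0 when each cluster of peaks closer than 10 kb was counted once, at -1.48 points (-3.27 to 1.43). It also included 0 for repeated Dsim_Zeus-only peaks against all 1561 Dyak_Caf40 peaks, at -2.88 points (-4.22 to 1.49). For 2L and 3L the intervals of the difference included 0, at 0.49 points (-3.57 to 4.94) and 2.78 points (-1.74 to 7.59). The excess on 2R rested in large part on 1 cluster of 31 peaks, described below. Without this cluster, an alternative chosen after the data were seen, 2R held 27.1% of the peaks and the difference was 3.67 points (-0.92 to 8.59). The deficit on 3R stayed at -7.69 points (-11.9 to -3.03).

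**Figure D1:**
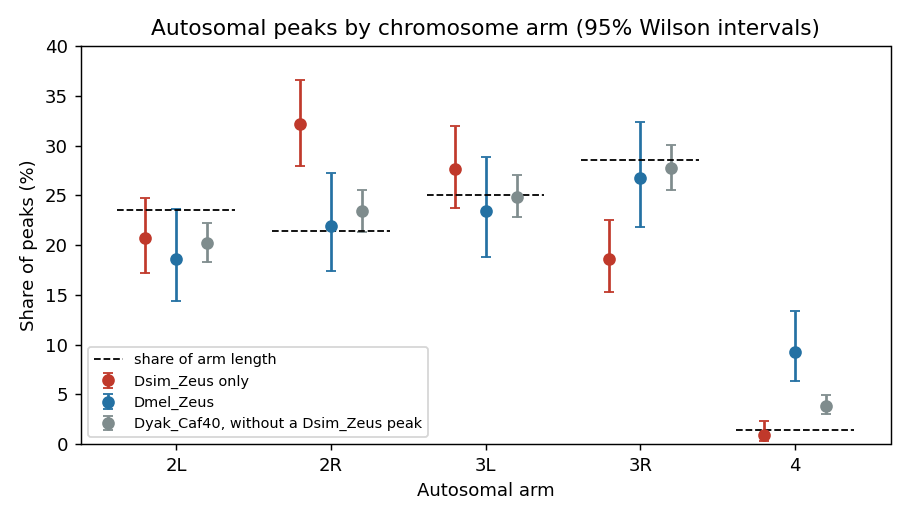
Share of autosomal peaks on each arm (%, points) with 95% Wilson intervals (bars), for Dsim_Zeus-only peaks, all Dmel_Zeus peaks and Dyak_Caf40 peaks without a Dsim_Zeus peak; dashed lines give the share of the arm in the summed arm length. The Dsim_Zeus-only share was 32.1% on 2R, above the arm's 21.5% of the length, and 18.7% on 3R, below the arm's 28.5%.

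Summed over the 4 large arms, the Dsim_Zeus-only peaks gathered towards the centromere, though not detectably on 3R, as given below. In the 0.5 Mb next to the centromere-proximal end they numbered 55, a density of 27.5 peaks per Mb over the 4 arms. Between 0.5 and 1 Mb the density was 20.5 per Mb, between 1 and 2 Mb it was 14.5 and between 2 and 5 Mb 5.75. Farther out it was 2.30 per Mb between 5 and 10 Mb and 3.05 beyond 10 Mb. The Dyak_Caf40 peaks without a Dsim_Zeus peak varied less, between 13.5 and 21.5 per Mb over the same 6 zones. They too were denser within 2 Mb of the end, at 19.75 to 21.5 per Mb against 13.5 to 15.7 farther out. Dmel_Zeus peaks ranged from 2.24 to 7.50 per Mb, also with the higher values within 1 Mb of the end.

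The first 1 Mb of the 4 arms, 4.15% of their length, held 96 of 441 Dsim_Zeus-only peaks, or 21.8% (18.2 to 25.9). It held 28 of 244 Dmel_Zeus peaks, or 11.5% (8.06 to 16.1), and 85 of 1501 Dyak_Caf40 peaks, or 5.66% (4.60 to 6.95). The share of the Dsim_Zeus-only peaks was higher than that of Dmel_Zeus by 10.3 points (95% Newcombe interval 4.45 to 15.6) and higher than that of Dyak_Caf40 by 16.1 points (12.3 to 20.3). Counting each cluster of peaks closer than 10 kb once left these differences at 12.5 points (5.40 to 19.6) and 16.9 points (11.4 to 23.1). The 28 Dsim_Zeus peaks that were shared with another list included 8 of 24 on the large arms in the same zone, or 33.3% (17.97 to 53.3), so the position near the centromere was not confined to the unshared peaks.

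The arms were not alike in this. On 3L, 36 of 123 Dsim_Zeus-only peaks lay in the first 1 Mb, or 29.3% (22.0 to 37.8), against 8 of 388 Dyak_Caf40 peaks, or 2.06% (1.05 to 4.02). On 2L it was 23 of 92, or 25% (17.3 to 34.7), against 5.71% (3.64 to 8.85), and on 2R 31 of 143, or 21.7% (15.7 to 29.1), against 6.58% (4.46 to 9.60). On 3R only 6 of 83 Dsim_Zeus-only peaks lay there, or 7.23% (3.36 to 14.9), against 35 of 433 Dyak_Caf40 peaks, or 8.08% (5.87 to 11.0). The difference on 3R was -0.85 points (-5.72 to 7.12) and was not detectable. Against Dmel_Zeus, the interval of the difference left out 0 only on 3L, at 24.5 points (13.4 to 33.6), and without 3L the difference over the other arms was 5.06 points (-1.93 to 11.4). The opposite, distal ends showed no such gathering: their last 1 Mb held 10 of 441 Dsim_Zeus-only peaks, or 2.27% (1.24 to 4.12), 9 of 244 Dmel_Zeus peaks, or 3.69% (1.95 to 6.86), and 88 of 1501 Dyak_Caf40 peaks, or 5.86% (4.78 to 7.17).

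**Figure D2:**
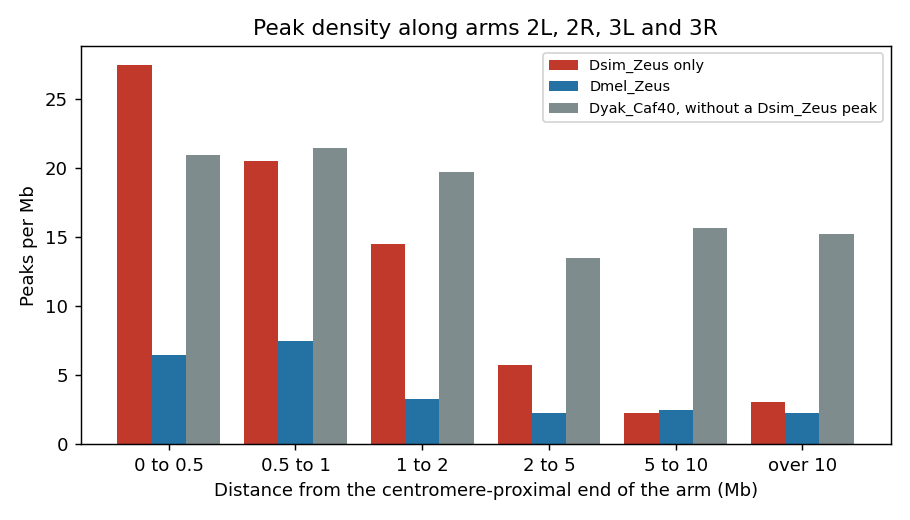
Peaks per Mb (bars) in 6 zones of distance from the centromere-proximal end, summed over 2L, 2R, 3L and 3R, for Dsim_Zeus-only, Dmel_Zeus and Dyak_Caf40 peaks. The Dsim_Zeus-only density was 27.5 per Mb in the zone next to the end and 3.05 per Mb beyond 10 Mb, while that of Dyak_Caf40 stayed between 13.5 and 21.5.

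On chromosome 4 the 4 Dsim_Zeus-only peaks lay at the edges. Their dm3 positions, counted from 1 as all positions given here, were 5694 to 6316, 35569 to 36571, 1335272 to 1335544 and 1348257 to 1348522. The last of them ended the chromosome as far as any list reached. No Dsim_Zeus-only peak lay in the 1.30 Mb between the second and the third, which held all 25 Dmel_Zeus and all 62 Dyak_Caf40 peaks of the chromosome. The 4 Dsim_Zeus peaks that were shared with another list lay between 613737 and 703744. Their place in this middle part follows from the choice, since a shared peak can only lie where another list has one. The same choice left them out of the Dsim_Zeus-only peaks. The position of the 4 Dsim_Zeus-only peaks at the edges is therefore a description and no result.

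The distances to the other lists come from the intervals that chose the peaks and are given as a description. The distance to the nearest Dyak_Caf40 peak had a median of 44.5 kb (quartiles 16.3 and 87.8 kb) and a maximum of 295 kb. To the nearest Dmel_Zeus peak, in a list with fewer peaks, the median was 153 kb (quartiles 73.8 and 314 kb). Within 1 kb of a Dyak_Caf40 peak lay 11 Dsim_Zeus-only peaks, or 2.47% (1.39 to 4.37), and within 10 kb 74, or 16.6% (13.5 to 20.4). For Dmel_Zeus there were 0 within 1 kb and 14 within 10 kb, or 3.15% (1.88 to 5.21). Only 12 of the 445 lay within 10 kb of a Dsim_Zeus peak that was shared with another list, or 2.70% (1.55 to 4.65).

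The limit of the choice was a single shared bp. Just inside it, the Dsim_Zeus-only peak on 2R at 8390197 to 8390580 ended 72 bp before a Dyak_Caf40 peak at 8390653 to 8391150. The next nearest, on 3L at 12912331 to 12912590, lay 182 bp from a Dyak_Caf40 peak at 12912773 to 12912974. Just outside it, the shared Dsim_Zeus peak on 2R at 3128743 to 3131134 had 8 bp in common with a Dyak_Caf40 peak at 3131127 to 3131992, and no other shared peak had an overlap below 202 bp. The peaks near the limit were therefore few, and most members would have been kept under a wider margin: 443 of them lay at least 250 bp from both other lists.

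**Figure D3:**
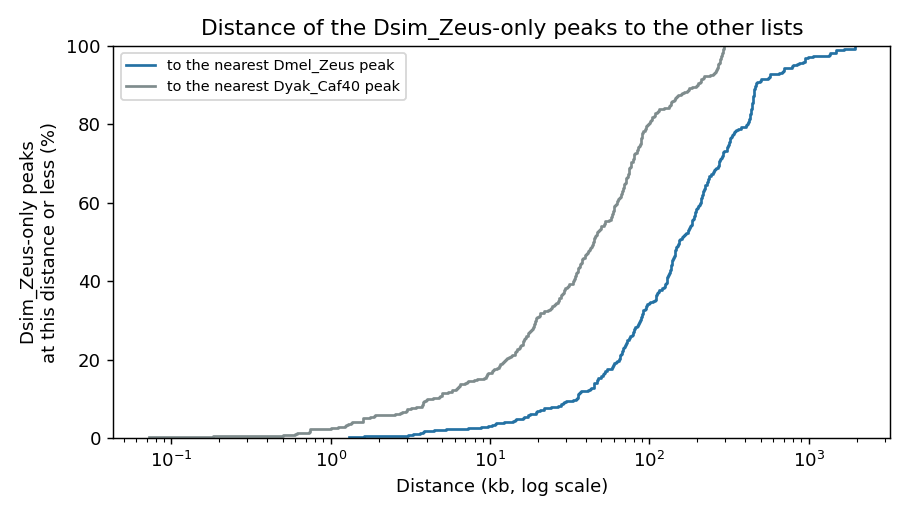
Cumulative share of the 445 Dsim_Zeus-only peaks (%) by distance to the nearest Dmel_Zeus and the nearest Dyak_Caf40 peak (kb, log axis). The curves pass 50% at 153 kb for Dmel_Zeus and at 44.5 kb for Dyak_Caf40, whose list is longer.

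Many Dsim_Zeus-only peaks lay close to each other. Of the 445, 319 had another Dsim_Zeus-only peak within 10 kb, or 71.7% (67.3 to 75.7), and the median distance to the nearest one was 2056 bp. Among Dmel_Zeus peaks this share was 66 of 269, or 24.5% (19.8 to 30.01), at a density of 2.75 peaks per Mb against 4.55 per Mb for the Dsim_Zeus-only peaks. Among Dyak_Caf40 peaks it was 1023 of 1561, or 65.5% (63.1 to 67.9), at 16.0 peaks per Mb. The Dyak_Caf40 list, with 3.51 times the density, thus had a slightly lower share of peaks with a near neighbour. Joined across gaps under 10 kb, the Dsim_Zeus-only peaks formed 223 clusters, of which 126 were single peaks, 43 had 2 peaks, 36 had 3 and 5 had 4. The other 13 clusters had 5 or more peaks and together held 105 of the 445. Without the 1 Mb next to the centromeres the share with a near neighbour was 72.8%, so the crowding was not limited to those ends.

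The largest cluster held 31 peaks on 2R at 15610535 to 15653899, a stretch of 43.4 kb that lay 15.6 Mb from the centromere-proximal end. Its peaks covered 13.7 kb, and the widest gap between neighbours was 6113 bp. No Dyak_Caf40 peak came nearer than 253 kb and no Dmel_Zeus peak nearer than 416 kb. Its scores were moderate, from 3.62 to 15.9 with a median of 6.90, and the best of them ranked 84 among the 473 autosomal Dsim_Zeus peaks. The cluster was instead set apart by repeated lines, since 20 of its 31 peaks stood on 2 or more lines of the list. It took 221 of the 939 lines of all Dsim_Zeus-only peaks, or 23.5%, with 7.0% of the peaks.

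**Figure D4:**
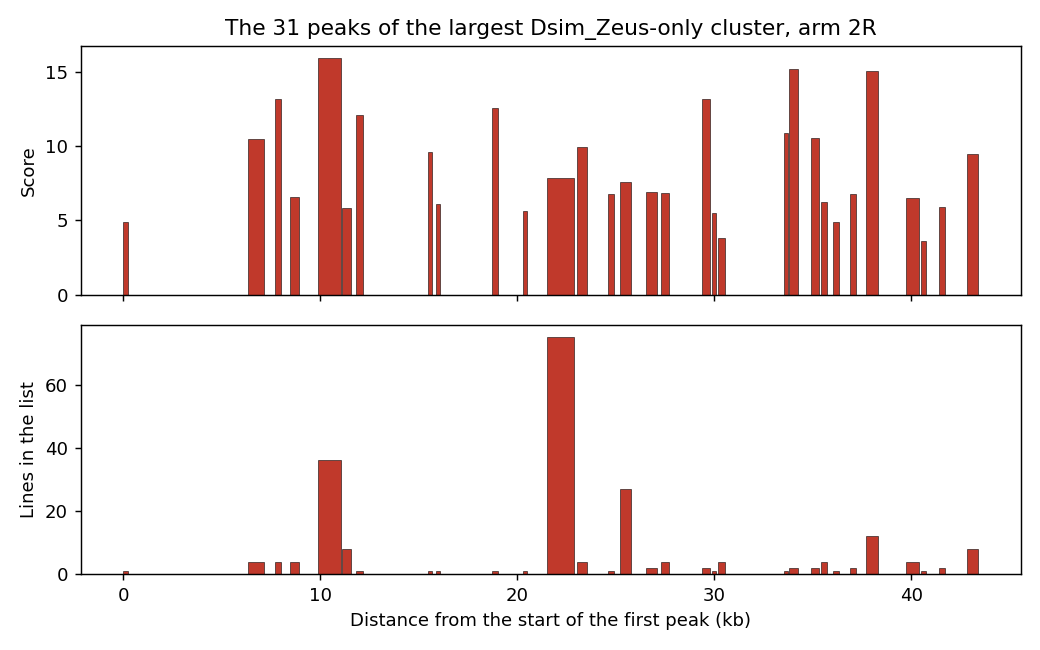
Score (upper panel) and number of lines in the list (lower panel) of the 31 peaks of the largest cluster on 2R, each drawn at its width, against distance from the start of the first peak (kb). Scores stayed at or below 15.9 along the whole cluster, while 1 peak stood on 75 lines and others on 36 and 27.

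The second largest cluster held 12 peaks on 2L at 21453291 to 21506237, over 52.9 kb at 1.52 Mb from the centromere-proximal end. Unlike the first, it was interleaved with Dyak_Caf40 peaks, of which 6 lay within it or within 10 kb of it. Of its peaks, 2 lay 593 and 612 bp from one of them. Its highest score was 30.6 and no peak of it stood on more than 2 lines. The largest clusters of the other large arms had 6 peaks each, on 3R at 4724560 to 4739438 and on 3L at 23036031 to 23041530, and neither had a peak of another list within 10 kb. The first of these lay 4.73 Mb and the second 1.46 Mb from the centromere-proximal end. Of the 13 clusters of 5 or more, 10 had no Dyak_Caf40 peak within 10 kb, and 13 had no Dmel_Zeus peak there. Among all 445 Dsim_Zeus-only peaks, only 74 (16.6%) lay within 10 kb of a Dyak_Caf40 peak and 14 (3.15%) of a Dmel_Zeus peak. Most peaks of the choice thus had none near, and the counts for clusters are a description and no result. D. melanogaster carries its array of 5S rRNA genes on 2R and its array of histone genes on 2L. Whether a cluster lies in such an array was not analysed here.

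The score that the list gives each peak, whose scale is not stated, was used to order peaks within the Dsim_Zeus list. The highest score among the Dsim_Zeus-only peaks belonged to a peak of 494 bp on 2R at 12185605 to 12186098, with 189, on 1 line. It lay 993 bp from a Dyak_Caf40 peak and 3626 bp from a Dmel_Zeus peak, so this highest-scoring peak was one of the 11 within 1 kb of Dyak_Caf40. The second, of 319 bp on 3L at 4705648 to 4705966, scored 68.7, also on 1 line, and its nearest neighbour in the other lists was 151 kb away. The third, of 2480 bp on 2R at 8749834 to 8752313, scored 46.2 and stood on 24 lines. The first score was 2.75 times the second, and the 10 highest reached down to 36.8. These 10 peaks lay on 2R (6 peaks), 2L (2) and 3L (2).

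The highest-scoring peaks of the remaining arms differed in their surroundings. On 2L it was a peak of 918 bp at 22410368 to 22411285 with a score of 40.2, which lay 0.590 Mb from the centromere-proximal end and 2547 bp from a Dyak_Caf40 peak. On 3R it was a peak of 3276 bp at 24592218 to 24595493 with a score of 32.7, which lay 24.6 Mb from that end and 39.2 kb from a Dyak_Caf40 peak. On chromosome 4 it was the peak at 5694 to 6316, with a score of 32.1. Over all 445 peaks the median score was 8.94 (quartiles 6.33 and 12.7, range 2.98 to 189). The 28 shared Dsim_Zeus peaks had a median of 20.4 (quartiles 12.9 and 29.96, range 5 to 78.6), and the distributions overlapped. From the centromere outwards, the median scores of the Dsim_Zeus-only peaks in the 6 zones were 10.8, 10.03, 8.99, 8.81, 10 and 7.93, with no steady order (Spearman's rho of score and distance across 441 peaks -0.17, given as a description).

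The widths of the Dsim_Zeus-only peaks had a median of 342 bp (quartiles 257 and 520, range 200 to 4108). They were close to those of the Dyak_Caf40 peaks, with a median of 334 bp (257 and 485, range 200 to 4644), while Dmel_Zeus peaks had a median of 304 bp (244 and 376, range 200 to 4164). Together the Dsim_Zeus-only peaks covered 210 kb. Wide peaks tended to score higher (Spearman's rho across the 445 peaks 0.49, with no test), and 32 peaks were wider than 1000 bp.

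Many Dsim_Zeus-only peaks were repeated in the list, with the same interval, name and score on several lines. Of the 445, 104 stood on 2 or more lines, or 23.4% (19.7 to 27.5). Of the 28 shared Dsim_Zeus peaks it was 6, or 21.4% (10.2 to 39.5), with up to 24 lines, so repetition was not particular to the unshared peaks. Of the Dmel_Zeus autosomal peaks it was 5 of 269, or 1.86% (0.80 to 4.28), and of the Dyak_Caf40 peaks 85 of 1561, or 5.45% (4.43 to 6.68). The highest number of lines was 75 for a Dsim_Zeus-only peak, 4 for a Dmel_Zeus peak and 3 for a Dyak_Caf40 peak. The number of lines took the values 1, 2, 4, 6, 8, 12, 16, 24, 27, 36 and 75 and no other.

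Repetition went with width. Peaks on 1 line had a median width of 306 bp, the 65 on 2 lines 489 bp and the 21 on 4 lines 718 bp. Of the 165 peaks under 300 bp only 8 were repeated, and of the 32 over 1000 bp 23 were. Width and the number of lines did not run strictly together, since the 4 peaks on 24 lines were 1909 to 4108 bp wide, while a peak of 549 bp in the largest cluster stood on 27. In 54 peaks the lines were more than the intervals of 200 bp, the narrowest peak of any list, that would fit side by side in the peak. The most repeated peak of each arm was that of 1373 bp on 2R at 15632026 to 15633398 (75 lines, score 7.82), on 3R the arm's highest-scoring peak (24 lines), on 2L a peak at 1801325 to 1802492 (16 lines, score 11.1), on 3L one at 21242937 to 21244006 (16 lines, score 8.61) and on chromosome 4 that at 35569 to 36571 (4 lines, score 17.8). Of the 18 peaks on more than 4 lines, 12 lay on 2R. A count of lines in place of peaks would therefore give 2R 483 of 939, or 51.4%, in place of 32.1%.

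**Figure D5:**
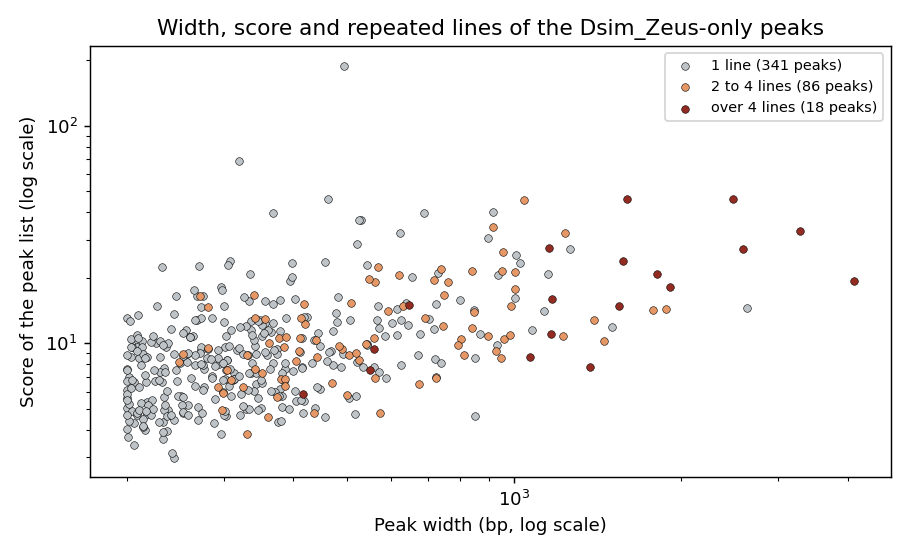
Score against width (bp) of each Dsim_Zeus-only peak, both on log axes, coloured by the number of lines on which the peak stood. The 18 peaks on more than 4 lines were mostly wide, 14 of them over 1000 bp, and the 2 highest scores, 189 and 68.7, belonged to narrow peaks on 1 line.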

How the data were processed

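The authors mapped single-end reads with BWA to the UCSC dm3 build, and called peaks with MACS2 for their motif search, keeping those common to the best replicate pair. Whether the deposited lists are those peaks is not stated. The submitters' processing notes name CASAVA 1.4 and a mouse build, which the fly sequence names of the lists go against. Each deposited list gives the sequence, start, end, name and score of its peaks. Per the file as deposited, the score has no stated scale, and it served only for comparisons within a list. The interval columns were used as deposited, with 1 added to the start. The letter of each list matches the line code in the sample titles of 1 protein.

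Repeated lines were collapsed to distinct peaks and their number was kept. The 3 lists were compared with pandas 2.3.3, and 1 bp in common counted as overlap. Intervals came from statsmodels 0.14.6. Arm length was the highest peak end in any list, and distance was measured from peak midpoints. The functions were tested on simulated data. Peaks named are the 3 with the highest score, those with the highest score and most lines of each arm, the largest cluster of each arm, and the peak on either side of the limit of the choice. The other chromosome 4 peaks, the second peak just inside the limit, the peak of 549 bp and a second cluster on 3R were named after their values were seen. The peaks and comparisons were chosen with earlier results of these data known. Alternatives were a cluster count, the higher-scoring 50%, margins of 250 bp and 1 kb, all Dsim_Zeus autosomal peaks, line counts, other zone widths and other gaps. No genome or gene annotation of dm3 was used, so the CAZAM motif, sequences, base composition and genes at the peaks were not analysed here, and the arm lengths of a dm3 genome were not tried.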

Additional observations from a re-analysis of the deposited data

How the results depend on the processing

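Of 82 alternatives, 56 gave a value inside the interval of the reported one and left unchanged whether the interval of a difference included 0. None reversed a difference whose interval left out 0. Differences below are percentage points between the Dsim_Zeus-only peaks and the named list. For the share within 1 Mb of the centromere-proximal ends, the difference from Dyak_Caf40 was 11.5 with every line counted, 9.67 for 0.5 Mb, 24.0 for 2 Mb, 11.9 without 3L and 20.5 without 3R. That from Dmel_Zeus was 20.7 for the higher-scoring 50% and 18.1 for 2 Mb. Its interval included 0 with every line counted (4.31) and without 3L (5.06). It also included 0 for repeated Dsim_Zeus-only peaks against all Dmel_Zeus peaks (6.97). With every line counted, the differences from Dyak_Caf40 on the arms were -6.06 on 2L, 28.3 on 2R, -5.10 on 3L and -14.0 on 3R. The signs on 2L and 3L were then the opposite of those over distinct peaks, whose intervals included 0. Repeated Dsim_Zeus-only peaks alone, against the unchanged Dyak_Caf40 peaks, gave 15.1 on 2R and -2.88 on chromosome 4, where the interval then included 0. Counting clusters once gave 3.74 on 2R and -1.48 on chromosome 4, both with intervals that included 0. Without the largest cluster it was 3.67 on 2R and 4.85 on 3L, whose interval then left out 0, and the higher-scoring 50% gave -4.46 on chromosome 4. The share with a near neighbour was 65.8% for 5 kb, 75.7% for 20 kb and 56.1% for the higher-scoring 50%. The median width was 429.5 bp for the higher-scoring 50% and 306 bp for peaks on 1 line. Leaving out the largest cluster or an arm was chosen after seeing the data. The causes of these shifts were not tested beyond what each alternative leaves out. No paired analysis was possible because no list gives a value for a library, and for the same reason no library could be left out.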

Other observations

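The numbers in the peak names, which rise along every sequence of each list, leave gaps where peaks of the numbered series are not in the list. In the Dsim_Zeus list they ran to 7835 for 1091 distinct peaks, or 13.9%. In the Dmel_Zeus list they ran to 427 for 378 peaks, or 88.5%, and in the Dyak_Caf40 list to 2844 for 1964 peaks, or 69.1%. Between the first and the last number of an arm, Dsim_Zeus peaks made up 8.44% of the numbers on 2L, 13.9% on 2R, 9.83% on 3L, 6.75% on 3R and 3.05% on chromosome 4. These shares had the same order over the arms as the densities of the Dsim_Zeus-only peaks. Both count largely the same peaks, so the shared order is no separate result. Within 1 Mb of the centromere-proximal ends, 104 of 518 numbers were in the Dsim_Zeus list, or 20.1%, and farther out 361 of 4221, or 8.55%. For Dyak_Caf40 it was 90 of 138 numbers, or 65.2%, and 1429 of 2012, or 71.0%. In each zone of an arm, numbers were counted from the first to the last one present in the list. The Dsim_Zeus peaks counted here are those of the centromere-proximal shares given above, so their difference is no separate result.

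Consecutive numbers depend on how much of its numbered series a list holds. This was 13.9% for Dsim_Zeus, 88.5% for Dmel_Zeus and 69.1% for Dyak_Caf40. The shares below are therefore a description, and their order over the lists is no separate result. A Dsim_Zeus peak with the next lower or higher number was in the list for 224 of the 445 Dsim_Zeus-only peaks, or 50.3% (95% Wilson interval 45.7 to 55.0). It was 267 of 269 Dmel_Zeus peaks, or 99.3% (97.3 to 99.8), and 1440 of 1561 Dyak_Caf40 peaks, or 92.2% (90.8 to 93.5). In the largest cluster on 2R, 31 of the 36 numbers from 2191 to 2226 were in the list, and in the cluster on 3R at 24589773 to 24596964 all 5 numbers were. In the cluster of 12 peaks on 2L it was 12 of 31. How the missing numbers were removed was not tested.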
